A study of Homo sapiens with 24 samples.

Results

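Antisense long non-coding RNAs named with the ending -AS1 carry the symbol of the gene on whose opposite strand they lie, here called the sense gene. Of the 26475 gene symbols in the count files, 879 end in -AS1, and 208 of these had at least 10 counts on their own strand in any of 24 libraries. Those 208 RNAs are described here, each beside its sense gene. They were chosen by their measured counts, so their presence and level are a description, and an RNA that reached 10 counts in a single treatment group or only in groups with IFNγ had to be higher there. The cells were HepG2, an established human hepatocellular carcinoma line, and RNA depleted of ribosomal RNA was sequenced with a directional kit, which keeps the strand of each read. There were 8 treatment groups of 3 libraries: the solvent DMSO alone, 50 nM of ABBV-075, 50 nM or 500 nM of ABBV-744, interferon gamma (IFNγ) alone, and IFNγ together with each of the 3 inhibitor treatments. The study's methods give 12 h for ABBV-075, and their wording can be read as 24 h for DMSO, so comparisons of ABBV-075 with DMSO may also differ in time; the times of ABBV-744 and IFNγ and the dose of IFNγ were not given. The methods describe the DMSO and ABBV-075 samples as independent triplicates; for the other groups the sources used here do not say whether replicates were separate cultures, so p-values measure only the spread between these samples, which may be technical there. The libraries held 2978982 to 4304103 counts on genes, and the 208 RNAs together took 4250 to 6307 of them, or 0.135% to 0.157% of a library.

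Antisense RNAs are transcribed from the strand facing a gene, often starting close to the gene's own start and running away from it, since many promoters fire in both directions. Some pair with or silence the facing gene, many are broken down by the nuclear exosome soon after they are made, and liver cell lines hold several that lie at the genes of hepatocyte transcription factors. BET proteins read acetylated histones and bring the elongation factor P-TEFb to promoters. ABBV-075 blocks both bromodomains of the BET proteins, ABBV-744 prefers the second bromodomain, and IFNγ induces genes of antigen presentation.

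At the threshold of the rule, 21 of the 208 RNAs had exactly 10 counts in their highest library, among them ZMIZ1-AS1 and TOB1-AS1, and 12 other -AS1 symbols stopped at 9, among them FLVCR1-AS1 and TMEM9B-AS1. A further 350 of the 879 were at 0 in all 24 libraries. At least 10 counts in all 24 libraries were found for 64 RNAs, and 29 reached 10 in 1 library only. Mean counts were at least 10 in all 8 groups for 92 RNAs and in none for 53, so much of the list sits near the limit of counting.

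By position most of the 208 RNAs are what their names say. A place in the GENCODE annotation was found for 205, 158 under their own symbol and 47 through an older one, and 198 are annotated as long non-coding RNAs. HNRNPU-AS1 and TNRC6C-AS1 were not placed, since the only gene that now carries either symbol has its own line in the files. All 203 pairs that could be placed lie on opposite strands. The nearest start sites were within 1 kb in 139 of these pairs, with a median distance of 172 bases over all of them. Exons of both genes overlap in 131 pairs, 45 pairs diverge from nearby starts without any overlap, and 25 overlap in introns only. CCNT2-AS1 starts 110 bases from a start of CCNT2, which encodes cyclin T2 of P-TEFb, and CHKB-AS1 starts 172 bases from a start of CHKB, the choline kinase beta gene. NPSR1-AS1, by contrast, starts 99825 bases from the nearest start of the neuropeptide S receptor gene and overlaps most of its body.

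RefSeq promoters of 300 bases (250 before the start and 50 after it, build GRCh38.p14) were matched for 165 of the 208 RNAs. Their median ratio of observed to expected CpG was 0.816, beside 0.579 over all 35116 promoters and 0.869 for 178 sense genes. Each promoter was searched on both strands for TATAAA (the TATA box), for CCAAT (the CCAAT box), for GGGCGG (the GC box) and for TTCNNNGAA (the core of a STAT site), and matches of different motifs were allowed to overlap. TATAAA was held by 2.42% of the antisense promoters and 11.5% of all promoters, CCAAT by 31.5% and 34.6%, GGGCGG by 65.5% and 45.0%, and TTCNNNGAA by 7.27% and 7.66%. The promoters below belong to RNAs whose counts moved with a treatment, and capitals mark any of these motifs on either strand. They are PSMB8-AS1 (chr6:32843836-32844135, plus strand), CCNT2-AS1 (chr2:134918557-134918856, minus strand), CHKB-AS1, listed by RefSeq as CHKB-DT (chr22:50582776-50583075, plus strand), OSER1-AS1, listed as OSER1-DT (chr20:44210710-44211009, plus strand), HNF4A-AS1 (chr20:44395613-44395912, minus strand) and NPSR1-AS1 (chr7:34758223-34758522, minus strand). USP30-AS1 and CCDC144NL-AS1 are not in the table.
PSMB8-AS1: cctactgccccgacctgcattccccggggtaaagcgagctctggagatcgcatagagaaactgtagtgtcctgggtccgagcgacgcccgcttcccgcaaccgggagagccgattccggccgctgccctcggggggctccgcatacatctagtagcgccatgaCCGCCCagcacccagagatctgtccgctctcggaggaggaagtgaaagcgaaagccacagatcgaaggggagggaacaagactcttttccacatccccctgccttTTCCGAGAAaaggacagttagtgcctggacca
CCNT2-AS1: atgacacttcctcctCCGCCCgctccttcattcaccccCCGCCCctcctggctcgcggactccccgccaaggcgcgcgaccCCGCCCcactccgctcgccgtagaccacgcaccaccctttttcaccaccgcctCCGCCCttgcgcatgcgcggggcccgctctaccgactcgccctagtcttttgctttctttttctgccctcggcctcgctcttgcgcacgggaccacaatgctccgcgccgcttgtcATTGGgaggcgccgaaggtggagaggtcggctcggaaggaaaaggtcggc
CHKB-AS1: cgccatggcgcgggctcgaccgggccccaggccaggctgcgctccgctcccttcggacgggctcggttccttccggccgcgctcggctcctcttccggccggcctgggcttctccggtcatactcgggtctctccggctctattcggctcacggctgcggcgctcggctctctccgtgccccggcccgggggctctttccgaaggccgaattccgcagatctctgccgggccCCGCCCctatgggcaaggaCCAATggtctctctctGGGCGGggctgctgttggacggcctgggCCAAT
OSER1-AS1: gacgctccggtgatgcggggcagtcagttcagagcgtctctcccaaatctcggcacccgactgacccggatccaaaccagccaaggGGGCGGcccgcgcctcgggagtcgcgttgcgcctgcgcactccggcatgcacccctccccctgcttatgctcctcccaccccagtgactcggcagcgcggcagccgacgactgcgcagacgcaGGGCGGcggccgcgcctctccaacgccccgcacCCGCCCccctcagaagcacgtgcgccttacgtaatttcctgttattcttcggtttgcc
HNF4A-AS1: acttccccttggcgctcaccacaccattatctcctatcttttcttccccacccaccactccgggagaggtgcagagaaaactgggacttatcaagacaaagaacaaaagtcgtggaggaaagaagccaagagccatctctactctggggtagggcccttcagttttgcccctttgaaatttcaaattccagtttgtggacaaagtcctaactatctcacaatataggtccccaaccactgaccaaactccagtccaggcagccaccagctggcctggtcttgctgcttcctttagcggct
NPSR1-AS1: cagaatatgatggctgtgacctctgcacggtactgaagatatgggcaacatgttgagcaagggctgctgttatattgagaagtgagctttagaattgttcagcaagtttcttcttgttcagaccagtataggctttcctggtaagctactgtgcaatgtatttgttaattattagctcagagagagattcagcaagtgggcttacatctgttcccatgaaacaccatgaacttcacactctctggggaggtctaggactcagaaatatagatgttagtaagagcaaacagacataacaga

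The ratio of observed to expected CpG was 1.08 in the CCNT2-AS1 promoter, 1.01 in that of OSER1-AS1 and 0.890 in that of CHKB-AS1, against 0.221 for HNF4A-AS1 and 0.0786 for NPSR1-AS1. The CCNT2-AS1 window holds 4 GGGCGG and 1 CCAAT, the CHKB-AS1 window 2 of each, and none of the 4 motifs was found in the windows of HNF4A-AS1 and NPSR1-AS1. The window of PSMB8-AS1 holds 1 TTCNNNGAA.

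Strand was checked for each RNA, because a directional library leaves a small share of reads on the wrong strand. Over whole libraries the opposite-strand share was 1.47% to 1.72%. Of all counts over the exons of an RNA, at least 90% were on its own strand for 117 of the 208, under 50% for 30 and under 5% for 3. Among those last were MIF-AS1 (0.603%) and A2M-AS1 (4.89%), which face abundant genes, and reads of the facing gene on the wrong strand cannot be told apart from theirs. The own-strand share was 95.2% for CCNT2-AS1, 99.3% for CHKB-AS1 and 10.9% for PSMB8-AS1.

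**Figure D1:**
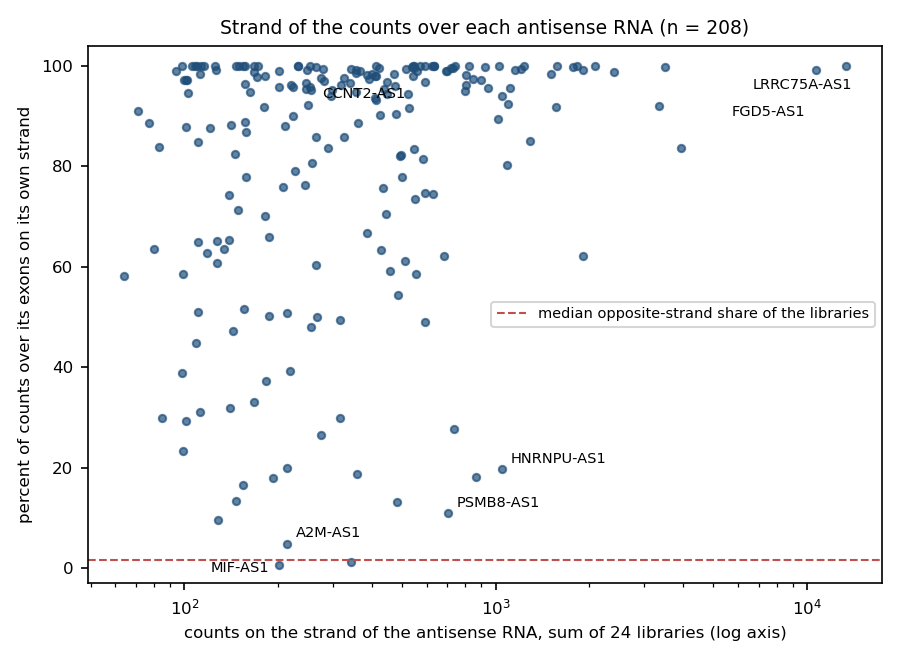
Counts of each of the 208 antisense RNAs on its own strand, summed over 24 libraries (horizontal, log axis), against the percent of all counts over its exons that lie on its own strand (vertical); the dashed line is the median opposite-strand share of the libraries, 1.61%. MIF-AS1 lies below that line, and 117 RNAs lie at 90% or above.

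Levels were low and uneven. The median mean level over 24 libraries was 3.67 in counts-per-million (CPM), 29 RNAs were over 10 CPM, and LRRC75A-AS1, now named SNHG29, a host of small nucleolar RNAs, was highest at 156 CPM. Per kb of exon, the median was 0.95 CPM for the 205 RNAs with a length in GENCODE. Those lengths may differ from the ones used for counting, whose annotation is not given, so values per kb depend on them. FGD5-AS1 led on this scale with 20.6 CPM per kb (16.9 to 24.3 over the 24 libraries), followed by EMC3-AS1 with 17.5 (12.4 to 24.5), LRRC75A-AS1 with 17.4 (13.9 to 21.3) and KMT2E-AS1 with 14.9 CPM per kb (8.43 to 23.2). These ranges overlap between neighbours, so the order within them is loose. The sense genes differ far more: FGD5 was at 0.00342 and LRRC75A at 0.00320 CPM per kb, while EMC3 was at 14.6 and KMT2E at 2.72. Across the 203 pairs with both lengths, the antisense RNA was above its sense gene per kb in 62. In raw counts the median RNA had 15.0% of the counts of its sense gene, 48 had more counts than it, and 28 faced a sense gene with at most 72 counts summed over 24 libraries. CHKB is among those 28, with 2 counts in all, and shares 72.5% of its exons with the readthrough gene CHKB-CPT1B, which was at 0 in every library, and whether shared reads were left uncounted was not tested. DLGAP1, a postsynaptic scaffold gene, was at 0 in all 24 libraries, and NPSR1 had 2 counts. In such pairs no change of the sense gene was detectable at this depth. Floors given here cover counting error only.

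**Figure D2:**
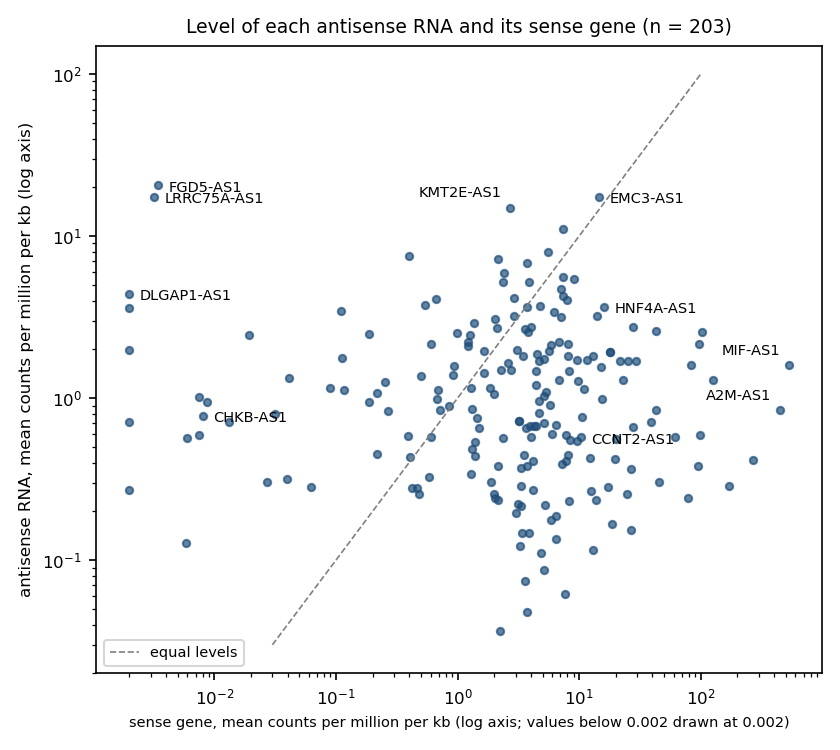
Mean level of each antisense RNA (vertical) and of its sense gene (horizontal) in CPM per kb of exon over 24 libraries, both on log axes, for 203 pairs, with sense genes below 0.002 drawn at 0.002. FGD5-AS1 and LRRC75A-AS1 stand far above the dashed line of equal levels, and CCNT2-AS1 below it.

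Libraries stood apart in ways that have to precede the comparisons. The first principal component over 10230 symbols took 52.7% of the variance, and the weight of a symbol on it followed its GC content (Spearman rho -0.66 across genes, which are not independent replicates). On that component the DMSO libraries were at -27.6, -21.1 and -22.6, ABBV-075 at 40.3, 26.7 and 0.460, ABBV-744 50 nM at -26.4, -51.4 and -33.1 and ABBV-744 500 nM at -16.0, -36.9 and -22.9. With IFNγ they were at -20.4, -24.6 and -30.6 for IFNγ alone, 42.8, 31.7 and 29.0 with ABBV-075, 30.7, 27.0 and 28.6 with ABBV-744 50 nM and 30.4, 26.5 and 19.8 with ABBV-744 500 nM. ABBV-075 replicate 3 thus lay between its own group and DMSO, and both ABBV-744 doses lay on the DMSO side without IFNγ and on the ABBV-075 side with it. Across genes, Spearman's rho of the log2 fold change with GC content was -0.34 for ABBV-075, 0.59 for ABBV-744 50 nM and 0.36 for ABBV-744 500 nM against DMSO, and -0.38, -0.68 and -0.54 for the same treatments against IFNγ alone. The part of this shift in the results was not tested; counts of called RNAs are given with and without a correction on GC content, and without ABBV-075 replicate 3 where it enters.

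The labels were checked on genes known for these agents and cells. IRF1, an early target of IFNγ, ranged from 10.9 to 19.0 CPM in the 12 libraries without IFNγ and from 195 to 252 CPM in the 12 with it. HEXIM1, which holds P-TEFb inactive and is a known responder to BET inhibitors, was at 50.5 to 56.7 CPM with DMSO, 137 to 152 with ABBV-075, 60.2 to 67.9 with ABBV-744 50 nM and 84.1 to 93.7 with ABBV-744 500 nM. Of 7 such genes, 5 were called higher and 0 lower with IFNγ alone, and of the 6 tested with ABBV-075, 2 were higher and 1 lower. All 7 hepatocyte markers passed the filter on low counts, with ALB at 1875 to 3548 CPM, 1 called higher and 0 lower with ABBV-075, while PTPRC, CD3E and COL3A1 were at 0 in all 24 libraries. Of 8 markers of other cell types 2 passed the filter, KRT19 and CD68, both called lower with ABBV-075, and the list summed to 269, 250 and 266 CPM with DMSO, 197, 185 and 230 with ABBV-075, and 115, 117 and 130 with IFNγ and ABBV-744 50 nM, nearly all of it KRT19, a keratin of bile duct cells, at 106 to 313 CPM over all libraries.

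The comparison of ABBV-075 with DMSO asks which antisense RNAs follow inhibition of both BET bromodomains. NPSR1-AS1, TMEM51-AS1 and HNF4A-AS1 were among those that fell most, and OSER1-AS1, CCNT2-AS1, CKMT2-AS1 and CHKB-AS1 rose most. A change is called here at an adjusted p of at most 0.05 by edgeR's quasi-likelihood test, adjusted by Benjamini and Hochberg over all 11244 symbols tested. Of the 208 RNAs, 134 passed the filter on low counts and were tested; 23 were called higher, beside 19.8% of all symbols tested, and 18 lower, beside 19.6%. As shares these are 17.2% and 13.4%, below the background, so the number of calls is not a result about antisense RNAs, and the account rests on the single RNAs. Without ABBV-075 replicate 3 the count was 52, and a correction on GC content gave 53, 38 of them among the 41 called. Of those 41, 22 stayed called without each library in turn, and all 22 of these were also called by DESeq2 and after the GC correction. DESeq2 called 26 RNAs in this comparison, 25 of them among the 41. In bulk RNA, fewer cells of a type and less RNA per cell cannot be told apart.

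**Figure D3:**
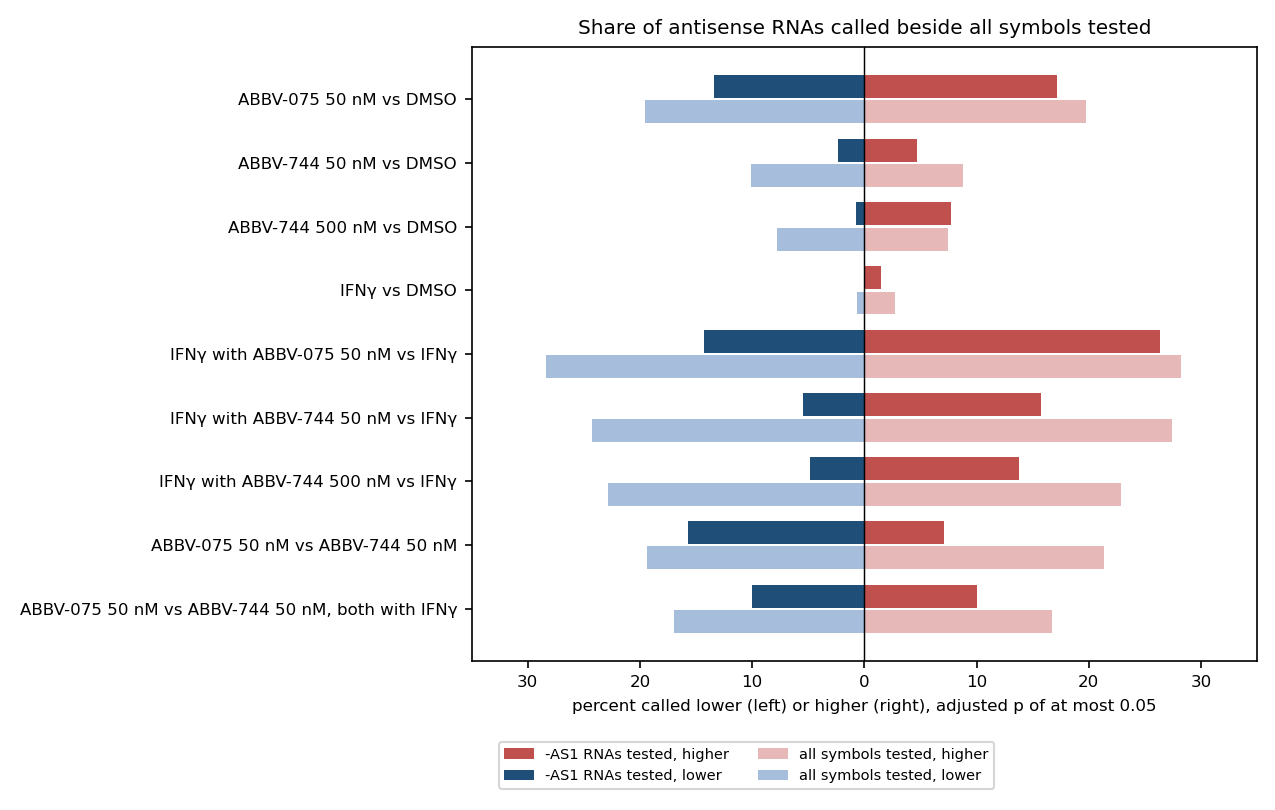
Percent of antisense RNAs tested (dark bars) and of all symbols tested (pale bars) called lower (left) or higher (right) in each comparison of 3 libraries a group, at an adjusted p of at most 0.05. In ABBV-075 against DMSO the shares called higher are 17.2% and 19.8%.

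HNF4A-AS1, within the gene of a hepatocyte nuclear factor, was at 3.75, 6.65 and 5.47 CPM with DMSO and 0.963, 2.29 and 1.80 CPM with ABBV-075, without overlap. Its log2 fold change was -1.70 (SE 0.39, adjusted p 0.00445), while that of HNF4A was -0.12 (SE 0.11, adjusted p 0.415) and was not called. The difference within the pair was not tested.

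Other RNAs that fell face genes with few or no counts. NPSR1-AS1 was at 8.03, 14.0 and 9.76 CPM with DMSO and 1.45, 2.87 and 2.40 CPM with ABBV-075, giving a log2 fold change of -2.29 (SE 0.34, adjusted p 3.33e-04). DLGAP1-AS1 was at 13.4, 10.4 and 14.8 CPM with DMSO and 3.85, 4.58 and 4.20 CPM with ABBV-075, giving a log2 fold change of -1.62 (SE 0.25, adjusted p 3.99e-04). Neither pair of groups overlaps, and no change could be measured for NPSR1 or DLGAP1, which were at the floor of 3 counts or fewer in every library. AGAP2-AS1 fell by a log2 fold change of -1.57 (SE 0.29, adjusted p 0.00147), from 9.63, 6.43 and 9.76 CPM to 3.37, 2.87 and 2.40 CPM. TMEM51-AS1, beside a transmembrane protein gene that is expressed, was at 4.01, 5.10 and 4.52 CPM with DMSO and 0.722, 1.15 and 1.80 CPM with ABBV-075, giving a log2 fold change of -1.94 (SE 0.39, adjusted p 0.00211); for TMEM51 it was -0.45 (SE 0.17, adjusted p 0.0552), not called.

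CCNT2-AS1 and CHKB-AS1 rose with ABBV-075. CCNT2-AS1 was at 1.34, 1.99 and 2.38 CPM with DMSO, 5.78, 6.02 and 6.30 with ABBV-075, 1.19, 2.19 and 2.85 with ABBV-744 50 nM and 3.19, 3.52 and 3.44 with ABBV-744 500 nM, from 5, 9 and 10 counts with DMSO and 24, 21 and 21 with ABBV-075. With IFNγ it was at 2.45, 1.47 and 1.40 CPM alone, 5.96, 4.34 and 3.61 with ABBV-075, 2.65, 1.13 and 1.93 with ABBV-744 50 nM and 1.33, 1.78 and 2.76 with ABBV-744 500 nM. The ABBV-075 libraries are the highest of their set both without and with IFNγ, and do not overlap their controls. The log2 fold change against DMSO was 1.61 (SE 0.31, adjusted p 0.00183), and CCNT2 rose on the facing strand by 0.82 (SE 0.18, adjusted p 0.00357), from 58.3, 62.7 and 64.3 CPM to 140, 114 and 77.7 CPM. After the GC correction the log2 fold change was 1.41 for CCNT2-AS1 and 0.38 for CCNT2, so the rise of CCNT2 is smaller with it. CHKB-AS1 was at 1.07, 1.77 and 2.38 CPM with DMSO, 5.78, 5.44 and 4.20 with ABBV-075, 2.98, 2.82 and 3.17 with ABBV-744 50 nM and 2.32, 2.24 and 3.73 with ABBV-744 500 nM. With IFNγ the levels were 3.54, 2.36 and 3.07 CPM alone, 5.21, 5.16 and 5.71 with ABBV-075, 3.13, 1.41 and 2.21 with ABBV-744 50 nM and 1.33, 3.26 and 3.07 with ABBV-744 500 nM. Here too the ABBV-075 libraries do not overlap DMSO, with a log2 fold change of 1.51 (SE 0.35, adjusted p 0.00487), while CHKB stayed at 0 in all of them. Both RNAs passed the filter on low counts here through their ABBV-075 libraries, and both stayed called in a fit without that filter.

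**Figure D4:**
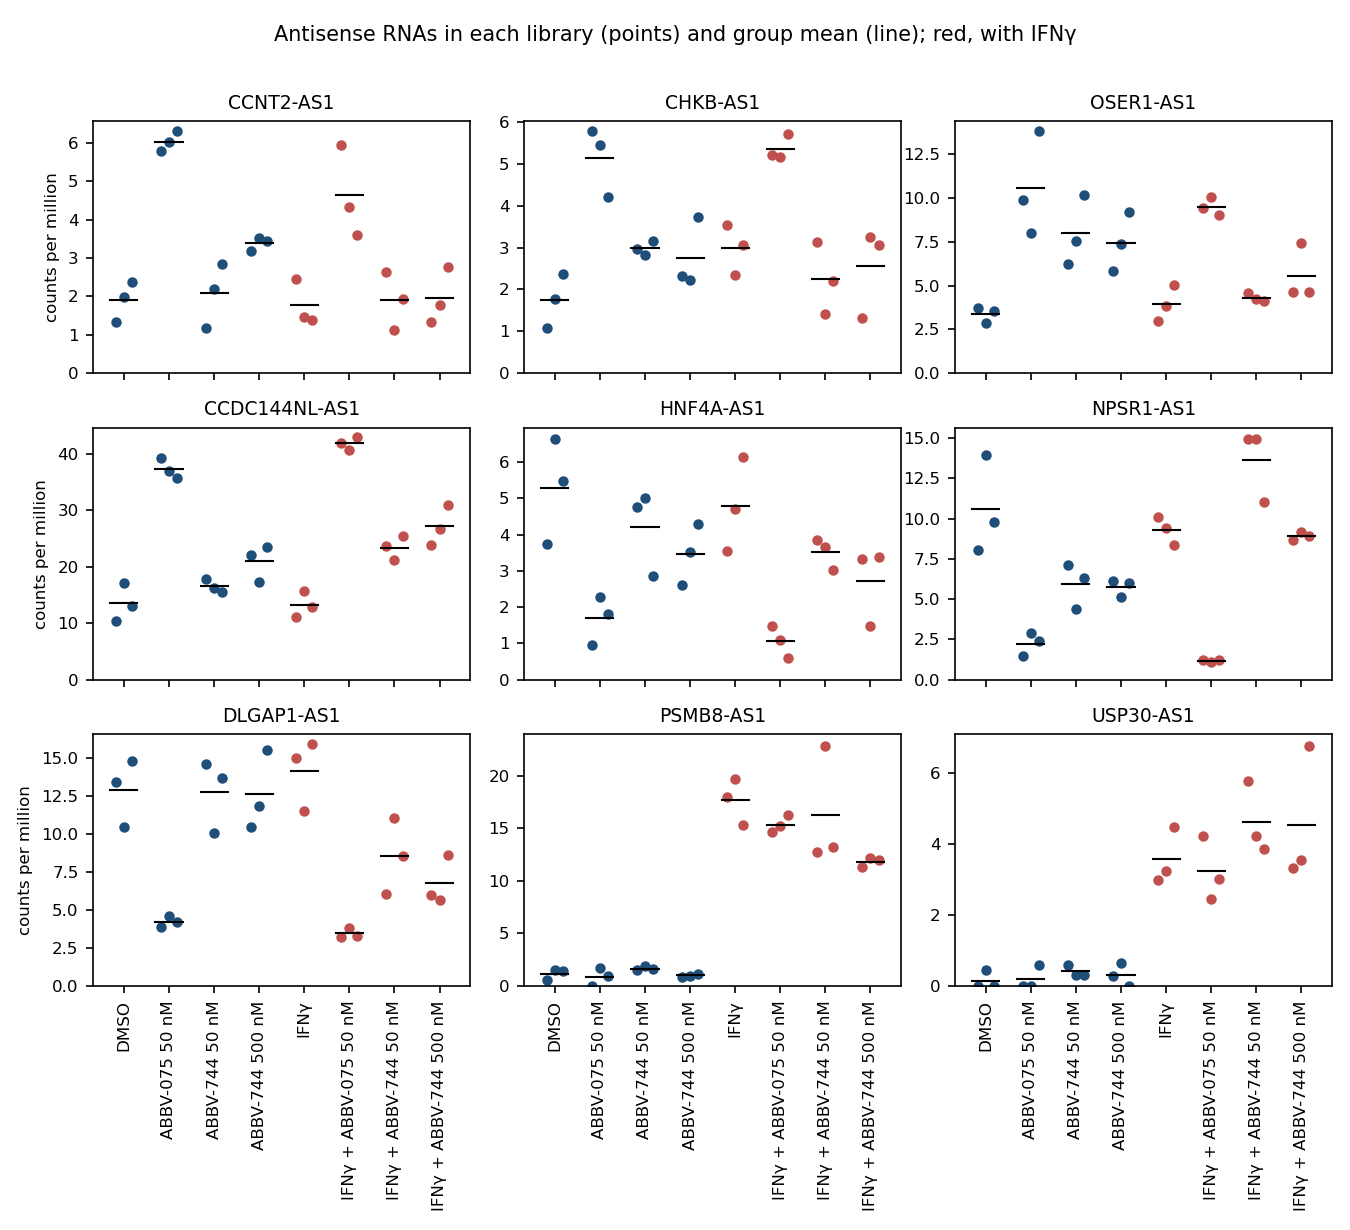
Levels (CPM) of 9 antisense RNAs in each library (points, 3 a group) with the group mean (line), blue without and red with IFNγ. HNF4A-AS1, NPSR1-AS1 and DLGAP1-AS1 are lower with ABBV-075 than in its controls, CCNT2-AS1, CHKB-AS1, OSER1-AS1 and CCDC144NL-AS1 are higher, and PSMB8-AS1 and USP30-AS1 are higher with IFNγ.

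OSER1-AS1, which diverges from a gene induced by oxidative stress, was at 3.75, 2.88 and 3.57 CPM with DMSO and 9.87, 8.02 and 13.8 CPM with ABBV-075, giving a log2 fold change of 1.61 (SE 0.29, adjusted p 0.00114) beside 0.29 for OSER1 (adjusted p 0.0899). CCDC144NL-AS1 was at 10.4, 17.1 and 13.1 CPM with DMSO and 39.2, 37.0 and 35.7 CPM with ABBV-075, giving a log2 fold change of 1.43 (SE 0.19, adjusted p 1.42e-04). Its facing gene CCDC144NL, itself annotated as non-coding, rose more, by 2.42 (SE 0.29, adjusted p 8.20e-05). PSMD5-AS1, beside a proteasome assembly gene, rose by 1.38 (SE 0.35, adjusted p 0.00889), ASB16-AS1 by 1.34 (SE 0.22, adjusted p 6.58e-04), CKMT2-AS1 by 1.57 (SE 0.41, adjusted p 0.00937) and NOP14-AS1, beside a gene of ribosome assembly, by 1.07 (SE 0.28, adjusted p 0.00953). CKMT2-AS1 too passed the filter on low counts through its ABBV-075 libraries and stayed called without that filter. In each of these RNAs the ABBV-075 libraries lay above all DMSO libraries, and the sense genes PSMD5 (-0.18) and NOP14 (-0.13) were not called. Of the other RNAs that the study lists, PRR7-AS1 did not pass the filter on low counts. It was at 2.68, 1.55 and 2.14 CPM with DMSO and 0, 1.15 and 0.60 CPM with ABBV-075. CPB2-AS1, FOXP4-AS1 and ZMIZ1-AS1 did not pass that filter either. The fit without the filter tested all 208 RNAs, and its values for these 4 are not reported here. A2M-AS1 had a log2 fold change of 1.18 (SE 0.34, adjusted p 0.0171), but the call was lost without DMSO replicate 1 (1.18), DMSO replicate 2 (1.15), DMSO replicate 3 (1.21) or ABBV-075 replicate 2 (1.07), by DESeq2 and with the counts of both strands. A2M-AS1 also passed the filter on low counts through its ABBV-075 libraries.

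With ABBV-075, an antisense RNA and its sense gene moved the same way about as often as opposite ways. Both genes of a pair were tested in 105 pairs, and their log2 fold changes had the same sign in 56. For starts within 1 kb it was 42 of 77 pairs, and for starts farther apart 14 of 26. Of 33 called RNAs with a tested sense gene, the sense gene was called in 8, and 7 of these had the same sign; of all symbols, 19.8% were called higher and 19.6% lower. With IFNγ the same counts were 57 of 107 pairs, then 22 of 39 sense genes called, where 28.2% of all symbols were higher and 28.4% lower, and 16 with the same sign. Same signs were more frequent in some other comparisons, with 74 of 119 pairs, and 10 of 10 with both called, in the interaction of ABBV-744 50 nM with IFNγ, and 61 of 100 pairs with ABBV-744 500 nM alone. In the interaction of ABBV-744 50 nM with IFNγ 51.6% of all symbols were called, and the values followed GC content across genes (Spearman's rho -0.77). The part of this in the signs of the pairs was not tested. Pairs in a comparison share libraries, so these are descriptions.

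**Figure D5:**
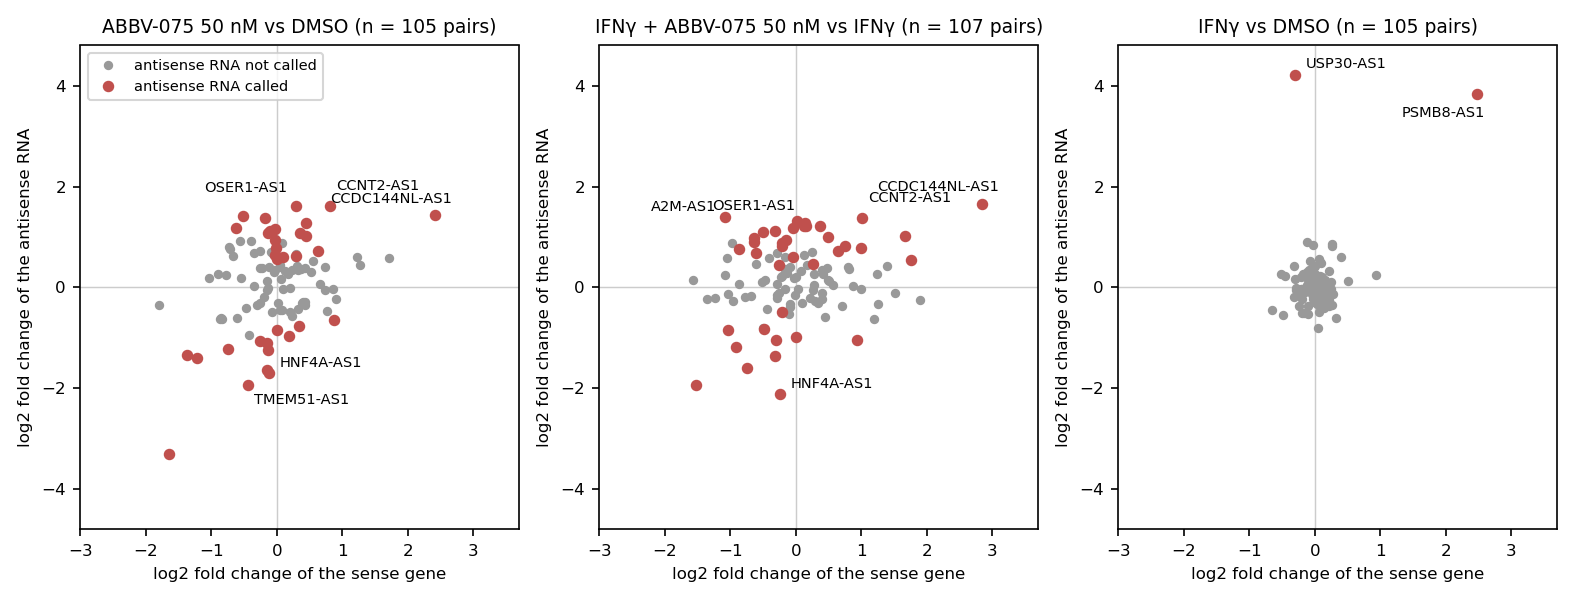
Log2 fold change of each antisense RNA (vertical) against that of its sense gene (horizontal) in pairs with both tested, for ABBV-075 against DMSO, IFNγ with ABBV-075 against IFNγ, and IFNγ against DMSO; red points are called antisense RNAs. With ABBV-075, 56 of 105 pairs have the same sign, and CCNT2-AS1 and CCDC144NL-AS1 move with their sense genes.

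Promoter composition of the RNAs called with ABBV-075 is given by direction. The median ratio of observed to expected CpG was 0.941 for 17 higher RNAs with a promoter, 0.678 for 14 lower ones and 0.818 for 78 not called. With IFNγ the medians were 0.899, 0.617 and 0.829 over 27, 15 and 66 promoters. No test was run on these medians, and their link to the GC shift of the libraries was not tested.

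ABBV-744 alone left few antisense RNAs called, and none of the calls at 50 nM held without each library in turn. These comparisons share the DMSO libraries with that of ABBV-075. At 50 nM, 6 of 127 RNAs tested were called higher, beside 8.81% of all symbols, and 3 lower, beside 10.1%. At 500 nM, 10 of 130 were called higher, beside 7.48%, and 1 lower, beside 7.8%. These shares are near or under the background. OSER1-AS1 was at 6.25, 7.53 and 10.1 CPM at 50 nM and 5.80, 7.36 and 9.19 CPM at 500 nM, above all DMSO libraries, with log2 fold changes of 1.24 (SE 0.30, adjusted p 0.00639) and 1.14 (SE 0.31, adjusted p 0.0104). The call at 50 nM was lost without ABBV-744 50 nM replicate 3 (1.03), and that at 500 nM without DMSO replicate 2 (1.03) or ABBV-744 500 nM replicate 3 (0.96) and by DESeq2. NPSR1-AS1 fell at both doses, to 7.14, 4.39 and 6.34 CPM and 6.09, 5.12 and 6.03 CPM, with log2 fold changes of -0.83 (SE 0.27, adjusted p 0.0326) and -0.88 (SE 0.26, adjusted p 0.0216). After the GC correction the values were -0.45 (adjusted p 0.277) and -0.69 (adjusted p 0.0562) and were not called, though the second kept most of its size; the first call was also lost without DMSO replicate 2 (-0.56), DMSO replicate 3 (-0.89), ABBV-744 50 nM replicate 2 (-0.65) or ABBV-744 50 nM replicate 3 (-0.87) and the other without DMSO replicate 2 (-0.62) or ABBV-744 500 nM replicate 3 (-0.92). ASB16-AS1 rose at 500 nM by 1.09 (SE 0.25, adjusted p 0.00318), from 5.62, 6.20 and 6.43 CPM to 11, 17.9 and 10.3 CPM, and is the 1 RNA of these comparisons that stayed called without each library in turn.

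The counts of RNAs called with ABBV-744 alone rest on few libraries. Against 9 at 50 nM the count was 2 without DMSO replicate 2, 3 without DMSO replicate 3 and 2 without ABBV-744 50 nM replicate 3. Against 11 at 500 nM it was 6 without DMSO replicate 1, 2 without DMSO replicate 2, 4 without DMSO replicate 3 and 3 without ABBV-744 500 nM replicate 3. DESeq2 called 0 RNAs at 50 nM, where it gave an adjusted p to 24, and 1 at 500 nM. The GC correction gave 6 at 50 nM and 14 at 500 nM, 4 and 8 of them called before it. CCNT2-AS1 was not called at 500 nM, with 0.81 (SE 0.39, adjusted p 0.168).

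PSMB8-AS1 and USP30-AS1 were higher with IFNγ alone. Without IFNγ neither reached 10 counts in any library, so they are among the 208 only because of libraries with IFNγ; that they are higher there follows from how the RNAs were chosen, and their values are a description. These were the 2 RNAs called higher of 133 tested, beside 2.76% of all symbols, and 0 were called lower, beside 0.695%. For the lower direction, edgeR's quasi-likelihood test and DESeq2 each gave 0 RNAs, and 9 RNAs in either direction had an unadjusted p under 0.05. PSMB8-AS1 starts 31 bases from a start of PSMB8, which encodes a subunit of the immunoproteasome. It was at 0.535, 1.55 and 1.43 CPM with DMSO and 18, 19.7 and 15.3 CPM with IFNγ, a log2 fold change of 3.84, and PSMB8 rose by 2.48 (SE 0.15, adjusted p 2.70e-16). Reads on the facing strand over its exons rose in the same libraries, from 187 counts in the DMSO group to 1703 in the IFNγ group, and its own-strand share was 7.43% and 9.94%. Those shares are above the opposite-strand share of whole libraries. USP30-AS1, within the gene of a mitochondrial deubiquitinase, had 0, 2 and 0 counts in the DMSO libraries and 11, 11 and 16 in the IFNγ libraries. The ratio of the group sums, 38 against 2 counts, was 22.2 after scaling for depth. Its 95% interval, for counting error only, was 5.74 to 190. Both DMSO counts came from 1 library, and the RNA was chosen through libraries with IFNγ. The ratio and its interval are thus descriptions and give no bound on the change. USP30 was not called, at -0.30 (SE 0.20, adjusted p 0.519), and 82.6% of the counts over the RNA were on its own strand with IFNγ. The GC correction gave the same 2 RNAs, while counts of both strands gave 1 called RNA.

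In all libraries with IFNγ, with or without an inhibitor, USP30-AS1 was at 2.44 to 6.75 CPM, against 0 to 0.640 CPM in the others. PSMB8-AS1 was at 11.3 to 22.8 CPM with IFNγ and 0 to 1.88 CPM without it, so neither RNA overlaps between the sets. Among IFNγ libraries ABBV-075 lowered PSMB8, which was at 53.1, 53.3 and 54.2 CPM with IFNγ alone and 24.1, 20.4 and 23.8 CPM with ABBV-075 added, giving a log2 fold change of -1.24 (SE 0.14, adjusted p 1.04e-09). For PSMB8-AS1 the log2 fold change was -0.21 (SE 0.19, adjusted p 0.35) with ABBV-075, not called, and the difference between the pair was not tested. With ABBV-744 500 nM PSMB8-AS1 was called lower, at -0.59 (SE 0.20, adjusted p 0.0147), a call lost without IFNγ replicate 2 (-0.51), by DESeq2, in a fit of all 24 libraries and after the GC correction.

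ABBV-075 added to IFNγ gave the most calls. NPSR1-AS1, HNF4A-AS1 and DLGAP1-AS1 fell and CCDC144NL-AS1, CCNT2-AS1, ASB16-AS1 and OSER1-AS1 rose, as they did without IFNγ. Of 133 RNAs tested, 35 were called higher, beside 28.2% of all symbols, and 19 lower, beside 28.4%. The shares of RNAs were 26.3% and 14.3%, near the background for higher and under it for lower. NPSR1-AS1 was at 10.1, 9.43 and 8.38 CPM with IFNγ and 1.24, 1.09 and 1.20 CPM with ABBV-075 added, giving a log2 fold change of -2.95 (SE 0.36, adjusted p 7.84e-09). DLGAP1-AS1 was at 15.0, 11.5 and 15.9 CPM and then 3.23, 3.80 and 3.31 CPM, a log2 fold change of -2.04 (SE 0.27, adjusted p 3.67e-08). HNF4A-AS1 was at 3.54, 4.71 and 6.14 CPM and then 1.49, 1.09 and 0.602 CPM, a log2 fold change of -2.12 (SE 0.44, adjusted p 8.59e-05). HNF4A was called lower too, at -0.24 (SE 0.10, adjusted p 0.0344), a call lost without IFNγ replicate 2 (-0.27), IFNγ replicate 3 (-0.20), IFNγ with ABBV-075 replicate 1 (-0.19) or IFNγ with ABBV-075 replicate 3 (-0.22), by DESeq2, without the filter on low counts and after the GC correction (0.03). The groups do not overlap for any of these. CCNT2-AS1 rose by 1.37 (SE 0.39, adjusted p 0.00314) beside 1.02 for CCNT2, and after the GC correction the values were 1.11 and 0.38. Here too CCNT2-AS1 passed the filter on low counts through its libraries with ABBV-075. DESeq2, which gave an adjusted p to all 208 RNAs, also called it. CCDC144NL-AS1 went from 11.2, 15.6 and 12.8 CPM to 41.9, 40.7 and 43.0 CPM, a log2 fold change of 1.66 (SE 0.16, adjusted p 6.13e-11) beside 2.84 for CCDC144NL. THAP9-AS1, which faces a gene derived from a transposase, rose by 1.02 (SE 0.23, adjusted p 2.47e-04) and THAP9 by 1.67 (SE 0.26, adjusted p 9.48e-07). After the GC correction the values were 0.94 for THAP9-AS1 and 1.05 for THAP9. CHKB-AS1 had a log2 fold change of 0.82 (SE 0.33, adjusted p 0.0346), and its call was lost by DESeq2 and without IFNγ replicate 2 (0.67), IFNγ replicate 3 (0.82), IFNγ with ABBV-075 replicate 1 (0.86), IFNγ with ABBV-075 replicate 2 (0.84) or IFNγ with ABBV-075 replicate 3 (0.77). The GC correction gave 65 calls, 45 of them among the 54.

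A2M-AS1 is an RNA whose result changes with the strand counted. It faces A2M, a plasma protease inhibitor gene at 1637 to 4323 CPM, and was itself at 1.09, 1.18 and 2.79 CPM with IFNγ and 5.46, 5.43 and 2.41 CPM with ABBV-075 added, which overlap. The log2 fold change was 1.39 (SE 0.42, adjusted p 0.00539) against -1.08 (SE 0.07, adjusted p 2.56e-15) for A2M, so counts on the strands of this pair were called in opposite directions. A2M-AS1 did not pass the filter on low counts in IFNγ against DMSO, so its test here depended on libraries with ABBV-075. DESeq2 did not call it, and with counts of both strands its log2 fold change was -0.09.

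With ABBV-744 added to IFNγ, HNRNPU-AS1 and CCDC144NL-AS1 rose and DLGAP1-AS1 fell at both doses. At 50 nM, 20 of 127 RNAs tested were called higher, beside 27.4% of all symbols, and 7 lower, beside 24.3%. At 500 nM, 17 of 123 were called higher, beside 22.9%, and 6 lower, beside 22.8%. The shares of RNAs were 15.8% and 5.51% at 50 nM and 13.8% and 4.88% at 500 nM; these were not tested against the shares of all symbols, and the part of depth in them was not tested either. HNRNPU-AS1, named for the gene of a nuclear RNA-binding protein, was at 7.62, 6.48 and 8.93 CPM with IFNγ, 20.2, 16.4 and 18.5 with ABBV-744 50 nM and 17.9, 17.8 and 20.9 with 500 nM, without overlap. Its log2 fold changes were 1.27 (SE 0.20, adjusted p 3.23e-06) and 1.28 (SE 0.21, adjusted p 1.22e-05); with 19.8% of counts on its own strand and no place in the annotation, its identity rests on the symbol. CCDC144NL-AS1 rose at both doses, by 0.85 (SE 0.17, adjusted p 1.30e-04) and 1.03 (SE 0.18, adjusted p 2.71e-05), the first of which the GC correction ended (0.24). DLGAP1-AS1 fell at both, by -0.73 (SE 0.23, adjusted p 0.00755) and -1.08 (SE 0.24, adjusted p 4.99e-04); the call at 50 nM was lost without IFNγ with ABBV-744 50 nM replicate 1 (-0.53), by DESeq2 and after the GC correction. PSMD5-AS1 rose at 500 nM by 1.18 (SE 0.32, adjusted p 0.00312), from 2.45, 5.01 and 2.79 CPM to 8.97, 6.51 and 7.98 CPM. NPSR1-AS1 was called higher at 50 nM, by 0.57 (SE 0.21, adjusted p 0.0228), but its log2 fold change was -0.36 after the GC correction, and the call was lost without IFNγ replicate 3 (0.49), IFNγ with ABBV-744 50 nM replicate 1 (0.48) or IFNγ with ABBV-744 50 nM replicate 2 (0.50). After that correction 21 RNAs were called at 50 nM and 27 at 500 nM, of which 11 and 14 had been called before it. DESeq2 called 14 RNAs at 50 nM and 10 at 500 nM.

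ABBV-075 and ABBV-744 were compared directly at 50 nM, where the dose matches; the time of ABBV-744 was not given. NPSR1-AS1 and DLGAP1-AS1 were lower and CCNT2-AS1 and CCDC144NL-AS1 higher with ABBV-075, both without and with IFNγ. Without IFNγ, 9 of 127 RNAs tested were called higher with ABBV-075, beside 21.4% of all symbols, and 20 lower, beside 19.4%. With IFNγ, 13 of 130 were called higher, beside 16.7%, and 13 lower, beside 17.0%. None of these shares is above the background. NPSR1-AS1 differed by -1.44 (SE 0.35, adjusted p 0.00985) without and -3.45 (SE 0.33, adjusted p 2.42e-11) with IFNγ. DLGAP1-AS1 differed in the same way, by -1.60 (SE 0.25, adjusted p 0.00162) and -1.24 (SE 0.30, adjusted p 0.00127). At the same dose these RNAs thus differed between the groups beyond the spread of the libraries. The parts of treatment time and of the GC shift in this were not tested. CCNT2-AS1 differed by 1.52 (SE 0.34, adjusted p 0.00674) without IFNγ and 1.31 (SE 0.39, adjusted p 0.00682) with it, the latter not called by DESeq2. In both comparisons CCNT2-AS1 passed the filter on low counts through its ABBV-075 libraries, as did CHKB-AS1 in that with IFNγ. HNF4A was lower with ABBV-075 in both, at -0.41 (SE 0.12, adjusted p 0.0207) without and -0.33 (SE 0.09, adjusted p 0.00369) with IFNγ; the first call was lost after the GC correction (-0.06) and without ABBV-075 replicate 1 (-0.36), ABBV-075 replicate 2 (-0.44), ABBV-744 50 nM replicate 2 (-0.36) or ABBV-744 50 nM replicate 3 (-0.39). CHKB-AS1 did not pass the test without IFNγ, at 0.78 (SE 0.30, adjusted p 0.0590) with a 95% interval of -0.06 to 1.61, and was higher with ABBV-075 in the presence of IFNγ, at 1.26 (SE 0.36, adjusted p 0.00493), a call that DESeq2 did not make. OSER1-AS1 likewise did not pass the test without IFNγ, at 0.39 (SE 0.28, adjusted p 0.279) with an interval of -0.39 to 1.17, and it was higher with it, at 1.18 (SE 0.27, adjusted p 5.05e-04). For NOP14-AS1 the intervals were -0.41 to 0.91 and -0.32 to 1.30, and for PSMD5-AS1 -0.51 to 1.38 and -0.24 to 1.31, so differences of that size could go undetected. The count of 29 called without IFNγ was 18 without ABBV-075 replicate 1, 15 without ABBV-075 replicate 2 and 18 without ABBV-744 50 nM replicate 2, and that of 26 with IFNγ was 15 without IFNγ with ABBV-075 replicate 2 and 17 without IFNγ with ABBV-075 replicate 3. Without ABBV-075 replicate 3 the former was 36, and the GC correction gave 34 without and 24 with IFNγ, 21 and 20 of them called before it. DESeq2 called 17 RNAs without and 10 with IFNγ, and a fit of all 24 libraries called 46 and 26.

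Whether IFNγ changed the response to an inhibitor was tested as an interaction, whose log2 value is the inhibitor's effect with IFNγ minus that without it. For ABBV-075, edgeR's quasi-likelihood test called 0 of 150 RNAs, beside 0.0347% of all symbols; DESeq2 called 0, as did the fits after the GC correction and without ABBV-075 replicate 3, and 7 had an unadjusted p under 0.05. For ABBV-744 at 50 nM it called 21 of 147, beside 51.6% of all symbols, and at 500 nM 7 of 144, beside 33.5%. THAP9-AS1 had the interaction at both doses: it was at 11.8, 9.97 and 9.52 CPM with DMSO and 6.25, 2.82 and 7.61 with ABBV-744 50 nM, but at 10.3, 9.13 and 6.70 CPM with IFNγ and 20.5, 12.7 and 14.9 with both. Its libraries lay below DMSO with the inhibitor alone and above IFNγ with both, without overlap, an interaction of 1.76 (SE 0.37, adjusted p 2.55e-04) at 50 nM and 1.21 (SE 0.37, adjusted p 0.0112) at 500 nM. The call at 500 nM was lost without IFNγ with ABBV-744 500 nM replicate 3 (0.93). TM4SF1-AS1, beside a gene of a small membrane protein, went the other way, at 2.41, 2.22 and 2.86 CPM with DMSO and 5.36, 5.64 and 6.02 with ABBV-744 50 nM, then 6.26, 2.65 and 4.47 CPM with IFNγ and 1.93, 3.67 and 2.21 with both, where only the latter groups overlap, an interaction of -2.0 (SE 0.50, adjusted p 0.00159). The ABBV-744 interactions lie along the GC shift of the libraries: Spearman's rho with GC content was -0.77 over all genes and -0.54 over 144 antisense RNAs at 50 nM. At 500 nM it was -0.66 over all genes and weaker, -0.26, over 141 antisense RNAs. After the GC correction 8 RNAs were called at 50 nM, 4 of them as before (EIF3J-AS1, named after its values were seen, HNRNPU-AS1, THAP9-AS1 and TM4SF1-AS1), and 7 at 500 nM, 2 of them as before (HNRNPU-AS1 and THAP9-AS1). HNRNPU-AS1 has no GC content in the reference, so the correction left its counts as they were. The count of 7 at 500 nM was 4 without DMSO replicate 2, 12 without IFNγ replicate 1 and 4 without IFNγ with ABBV-744 500 nM replicate 1.

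The machinery around these RNAs was read from lists chosen with earlier results known, and single genes of them are named after their values were seen. Of 8 genes of P-TEFb and the small nuclear RNA complex that holds it, 4 were higher and 1 lower with ABBV-075, where 19.8% of all symbols were higher and 19.6% lower, and the median change was 0.39 beside 0.03 over all symbols. HEXIM1 rose by 1.41 (SE 0.12, adjusted p 6.81e-06), beside CCNT2 as given above, while HEXIM2 fell, by -1.01 (SE 0.23, adjusted p 0.00432). Of 24 genes of the nuclear exosome and its adaptors, which degrade antisense and upstream transcripts, 4 were higher and 4 lower, shares not above those of all symbols, with a median of 0.03. ZFC3H1, an adaptor, rose by 1.01 (SE 0.21, adjusted p 0.00278) and DIS3, a catalytic subunit, by 0.77 (SE 0.26, adjusted p 0.0306) with overlapping groups, while the core subunits EXOSC5 and EXOSC7 changed by -1.12 (SE 0.19, adjusted p 8.12e-04) and -0.92 (SE 0.18, adjusted p 0.00171). With ABBV-075 added to IFNγ, 7 exosome genes were higher, beside 28.2% of all symbols, and 6 lower, beside 28.4%. These counts are no result about the exosome. Apart from CCNT2, the genes of these lists were read only from the main fits. They were not read without each library in turn, by DESeq2 or after the GC correction. The part of the GC shift in their changes was not tested.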

How the data were processed

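RNA of HepG2 cells was measured by stranded sequencing after removal of ribosomal RNA, in 8 groups of 3 libraries taken from the labels. The deposited values are unscaled counts by gene symbol, given for each strand and for the pair of strands combined; the authors converted base calls with CASAVA 1.8.2, trimmed reads with Trimmomatic 0.33 and aligned them to hg38 with STAR 2.7.1. The annotation used for counting is not given in the sources used here. Counts from a gene's own strand enter all results unless stated. Libraries held 2978982 to 4304103 such counts; multi-mapped reads, 56.0% to 69.4% of those listed, were kept out of library sizes. Each comparison was fitted on the groups compared only, with edgeR 4.0.16 in R 4.3.3 (filterByExpr, TMM, quasi-likelihood test, Benjamini-Hochberg adjustment over all symbols tested, called at an adjusted p of at most 0.05). The fit was also run on simulated counts without a GC shift. Genes changed there were not of low counts, and they changed more than most RNAs here. That run therefore does not cover RNAs of few counts or small changes. Levels are CPM after TMM scaling of 24 libraries. The interval of a direct difference is its SE times the t value for 4 residual degrees of freedom. Alternatives were RLE normalization, DESeq2 1.42.0, no filter on low counts, all 24 libraries in one fit, a replicate block, counts of both strands, a log2 fold change of at least 1.5 in size, a correction on GC content, each library left out, and minimums of 5 or 20 counts. Python 3.11.15, numpy 2.4.6, pandas 2.3.3, scipy 1.17.1 and matplotlib 3.10.9 were used for summaries and plots. The RNAs and lists were chosen with earlier results of these data known, and tests, alternatives and naming rules were written down before the count files were read here.

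The naming rule took CCNT2-AS1 and CHKB-AS1, those the study lists, in each comparison with DMSO or IFNγ alone the 3 called RNAs that rose most and the 3 that fell most, PSMB8-AS1, and the 5 highest per kb; some of these RNAs and their genes are not reported here. Lists read beside them were label checks, markers of hepatocytes and other cells, P-TEFb genes and exosome genes. Positions came from GENCODE and promoters from RefSeq; an older symbol of a gene that has its own line in the files was not used as a match, so some RNAs have no position, length or GC content. Group means of few counts, replicates that may be technical in the other groups than DMSO and ABBV-075, a GC shift between groups and treatment times that are unknown or may differ limit what can be read from these counts.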

Additional observations from a re-analysis of the deposited data

Results flagged for a closer look

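For these genes the effect of ABBV-744 differed with and without IFNγ by edgeR's test of the interaction; each log2 value is the effect with IFNγ minus that without it. Of the 21 antisense RNAs called at 50 nM and the 7 at 500 nM, only those the naming rule took are listed; EIF3J-AS1, outside that rule, was called at 50 nM and stayed so after the GC correction. Antisense RNAs at 50 nM were NPSR1-AS1 1.37 (adjusted p 0.00141), OSER1-AS1 -1.12 (adjusted p 0.0326), THAP9-AS1 1.76 (adjusted p 2.55e-04), COX10-AS1 1.78 (adjusted p 1.51e-04), TM4SF1-AS1 -2.0 (adjusted p 0.00159), DLGAP1-AS1 -0.77 (adjusted p 0.0430), PITPNA-AS1 -1.36 (adjusted p 0.0190), HNRNPU-AS1 1.92 (adjusted p 2.84e-04) and LRRC75A-AS1 -0.40 (adjusted p 0.00755). At 500 nM they were THAP9-AS1 1.21 (adjusted p 0.0112), DLGAP1-AS1 -1.05 (adjusted p 0.0132), HNRNPU-AS1 1.77 (adjusted p 5.00e-04) and PRRT3-AS1 -1.24 (adjusted p 0.0258). Sense genes at 50 nM were A2M -0.66 (adjusted p 1.20e-06), CCDC144NL 1.13 (adjusted p 0.0495), CCDC183 -1.18 (adjusted p 0.0473), CCNT2 1.51 (adjusted p 1.18e-07), FOXP4 -1.10 (adjusted p 4.72e-04), HNRNPU 0.48 (adjusted p 0.00278), KMT2E 0.83 (adjusted p 0.00481), THAP9 1.74 (adjusted p 0.00150) and TMEM51 -0.54 (adjusted p 0.0318). At 500 nM they were A2M -0.61 (adjusted p 3.11e-05), CCDC144NL 1.27 (adjusted p 0.0156), CCNT2 1.14 (adjusted p 1.54e-05), HNRNPU 0.49 (adjusted p 0.00184), KMT2E 0.70 (adjusted p 0.00896) and THAP9 1.45 (adjusted p 0.0161). CCNT2 is on these lists at both doses while CCNT2-AS1 was not called in the interaction at 500 nM (log2 value -0.66, SE 0.62, adjusted p 0.429) and did not pass the filter on low counts at 50 nM; the difference within the pair was not tested. Of all symbols tested, 51.6% at 50 nM and 33.5% at 500 nM were called in the same test, so such a call was common. The values followed GC content across genes (Spearman's rho -0.77 and -0.66; genes are not independent replicates), and the cause was not tested. At 50 nM the GC correction ended the calls of NPSR1-AS1 (0.10), OSER1-AS1 (-0.89), COX10-AS1 (0.76), DLGAP1-AS1 (-0.39), PITPNA-AS1 (-1.0), LRRC75A-AS1 (-0.12), CCDC144NL (0.55), CCDC183 (-0.60), FOXP4 (-0.52), KMT2E (0.32), THAP9 (0.62) and TMEM51 (-0.01), with corrected values in parentheses. At 500 nM the GC correction ended the calls of DLGAP1-AS1 (-0.74), PRRT3-AS1 (-0.87), CCDC144NL (0.86), CCNT2 (0.28), KMT2E (0.33) and THAP9 (0.60), with corrected values in parentheses. HNRNPU turned to the opposite sign after it, -0.58 (adjusted p 1.50e-05) at 50 nM and -0.31 (adjusted p 0.0109) at 500 nM, both called, and CCNT2 at 50 nM was at 0.37 (adjusted p 0.0425), a call lost when the replicate block was added. The call of OSER1-AS1 at 50 nM was lost without DMSO replicate 2 (-1.01), ABBV-744 50 nM replicate 3 (-0.91), IFNγ replicate 2 (-1.14), IFNγ replicate 3 (-0.91), IFNγ with ABBV-744 50 nM replicate 2 (-1.09) or IFNγ with ABBV-744 50 nM replicate 3 (-1.08). That of DLGAP1-AS1 at 50 nM was lost without DMSO replicate 1 (-0.80), DMSO replicate 2 (-0.63), ABBV-744 50 nM replicate 1 (-0.66), ABBV-744 50 nM replicate 3 (-0.72), IFNγ replicate 1 (-0.72), IFNγ replicate 3 (-0.68), IFNγ with ABBV-744 50 nM replicate 1 (-0.54) or IFNγ with ABBV-744 50 nM replicate 3 (-0.77). The call for PITPNA-AS1 at 50 nM was lost without ABBV-744 50 nM replicate 2 (-1.11) or IFNγ with ABBV-744 50 nM replicate 2 (-1.08). The call of CCDC144NL at 50 nM was lost without DMSO replicate 1 (1.19), DMSO replicate 2 (1.15), DMSO replicate 3 (1.05), ABBV-744 50 nM replicate 2 (0.84), ABBV-744 50 nM replicate 3 (1.00), IFNγ replicate 1 (1.21), IFNγ replicate 2 (1.12), IFNγ replicate 3 (1.07), IFNγ with ABBV-744 50 nM replicate 1 (1.08) or IFNγ with ABBV-744 50 nM replicate 3 (0.94). That of CCDC183 at 50 nM was lost without DMSO replicate 1, DMSO replicate 2, DMSO replicate 3, ABBV-744 50 nM replicate 2, ABBV-744 50 nM replicate 3, IFNγ replicate 1, IFNγ replicate 2 or IFNγ with ABBV-744 50 nM replicate 3, with values of -1.25 to -0.85 without one of them. The call for TMEM51 at 50 nM was lost without DMSO replicate 2 (-0.41), ABBV-744 50 nM replicate 1 (-0.49), ABBV-744 50 nM replicate 2 (-0.50), IFNγ replicate 1 (-0.50), IFNγ with ABBV-744 50 nM replicate 1 (-0.50) or IFNγ with ABBV-744 50 nM replicate 2 (-0.44). The call of THAP9-AS1 at 500 nM was lost without IFNγ with ABBV-744 500 nM replicate 3 (0.93). That of DLGAP1-AS1 at 500 nM was lost without DMSO replicate 2 (-0.88) or ABBV-744 500 nM replicate 3 (-0.86). The call for PRRT3-AS1 at 500 nM was lost without DMSO replicate 2 (-1.17), DMSO replicate 3 (-1.19), ABBV-744 500 nM replicate 3 (-1.0), IFNγ replicate 3 (-1.19) or IFNγ with ABBV-744 500 nM replicate 1 (-0.99). The call of THAP9 at 500 nM was lost without IFNγ replicate 2 (1.19) or IFNγ with ABBV-744 500 nM replicate 1 (1.18).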

How the results depend on the processing

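Counts of called RNAs kept within 1.5 times the reported ones under RLE normalization and without a filter on low counts in all 12 comparisons. A log2 fold change of at least 1.5 in size left 11 of 41 with ABBV-075, 0 and 0 with ABBV-744 50 nM and 500 nM, 7, 0 and 0 with ABBV-075, ABBV-744 50 nM and 500 nM added to IFNγ, 4 and 3 between inhibitors without and with IFNγ, and 5 and 1 in the ABBV-744 interactions; the stricter threshold itself lowers these counts. DESeq2 called 26 RNAs with ABBV-075, 0 and 1 with ABBV-744 50 nM and 500 nM, 14 and 10 with these added to IFNγ, 17 and 10 between inhibitors, and 9 and 3 in the interactions; the cause was not tested. Counts of both strands gave 7 for ABBV-744 500 nM and 1 for IFNγ, 1 fit of all 24 libraries gave 46 between inhibitors without IFNγ, and the GC correction gave 8, with the replicate block too 8, in the interaction at 50 nM. Whether replicate numbers pair samples across groups is not given in the sources used here. Correlations of residuals between samples of the same number lay between -0.18 and 0.34 over the 9 comparisons of 2 groups. With so few samples a group these values cannot decide it. A replicate block gave 5 RNAs for ABBV-744 50 nM and 5 for 500 nM. A minimum of 20 counts gave 126 RNAs in place of 208, and a minimum of 5 gave 309. Leaving out each library in turn, calls ranged over 28 to 52 with ABBV-075, 2 to 11 and 2 to 10 with ABBV-744 50 nM and 500 nM, 2 to 3 with IFNγ, 45 to 52, 19 to 28 and 16 to 23 with ABBV-075, ABBV-744 50 nM and 500 nM added to it, 15 to 36 and 15 to 23 between inhibitors, and 0 to 0, 15 to 24 and 4 to 12 in the interactions; a group left with 2 samples was fitted with the spread pooled over groups. Direction reversed for NPSR1-AS1 with ABBV-744 50 nM added to IFNγ after the GC correction (-0.36, and -0.36 with the block), A2M-AS1 with ABBV-075 added to IFNγ in counts of both strands (-0.094), HNF4A in the same comparison after the GC correction (0.031 and 0.030), and HNRNPU in the interactions at 50 nM (-0.58 and -0.58) and 500 nM (-0.31 and -0.31); the cause was not tested. Over 235 called results of named genes, the call was lost with its direction kept in 54 by DESeq2, 64 by the GC correction, 22 in 1 fit of all libraries, 14 with the block, 18 in counts of both strands, 9 without the filter and 6 by RLE normalization; the reversals above are not in these counts, and DESeq2 and the counts of both strands gave no value for some of the results. Depth limits the lowest RNAs most: 64 of 208 had at least 10 counts in every library.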

Other observations

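The exosome and P-TEFb lists were also counted with ABBV-744. Of 24 exosome genes, those called were 0 higher and 5 lower at 50 nM alone, 1 higher and 2 lower at 500 nM alone, 10 higher and 4 lower at 50 nM with IFNγ and 8 higher and 5 lower at 500 nM with IFNγ. Of 8 P-TEFb genes, those called were 1 higher and 0 lower at 50 nM alone, 2 higher and 1 lower at 500 nM alone, 3 higher and 1 lower at 50 nM with IFNγ and 4 higher and 0 lower at 500 nM with IFNγ. Of all symbols, the shares called higher and lower were 8.81% and 10.1% at 50 nM alone, 7.48% and 7.8% at 500 nM alone, 27.4% and 24.3% at 50 nM with IFNγ and 22.9% and 22.8% at 500 nM with IFNγ. The lists were not tested against these shares. All these counts are from fits without the GC correction. Spearman's rho of the log2 fold change with GC content across genes was 0.59 at 50 nM alone and 0.36 at 500 nM alone. With IFNγ it was -0.68 at 50 nM and -0.54 at 500 nM. The part of this shift in the counts of the lists was not tested.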
